A study of Mus musculus with 4 samples.

Results

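Retinoic acid is made from vitamin A inside the tissue that uses it, and 9 genes of its synthesis, breakdown and response were followed here through the stroma of the E12.5 mouse intestine. They were Rdh10, Aldh1a1, Aldh1a2 and Aldh1a3 for synthesis, Cyp26a1 and Cyp26b1 for breakdown, Crabp1 and Crabp2 for binding inside the cell, and Rarb for the response. All 9 were among the 28692 genes listed for each library, and they were taken by symbol from the pathway, not by a cut on measured values. The libraries were 4 droplet single-cell RNA libraries, 2 of small intestine (SI) and 2 of large intestine (LI, caecum included), from untreated embryos of an EYFP strain on C57BL/6 (EYFP males, from a cross of R26R.EYFP with Cre mice, mated with C57BL/6Nrj females), so that no group differed in genotype or treatment. Embryos were pooled within an experiment, so that p-values measure the spread between pools. Kits for either end of the transcript (3′, 5′) were in use, and as the sources used here do not tie them to libraries, kit and library cannot be told apart. The tissue label names the lamina propria of the SI or colon, whereas titles and protocols give E12.5 embryos, and the latter were followed. Cells had been sorted as live, YFP+ and Itgb1+ and as CD45-, Ter119-, CD31- and EpCAM-, which leaves stroma, mesothelium and the enteric nervous system. The question was which of these cells could make retinoic acid and which carried signs of answering it, in each region.

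After removal of cells with few detected genes, of cells rich in mitochondrial RNA and of the likeliest doublets, 22094 cells remained. They fell into 11 clusters, found without the 9 genes, the other retinoic acid genes or the Hox genes, and named by markers. The mesothelial-like group (1 cluster, 1320 cells) is the outer lining of the gut. The fibroblast-like or FB-like group (3 clusters, 10799 cells) is the bulk of the mesenchyme, and the SMC-like group (1 cluster, 4944 cells) carried smooth muscle genes. The neural-like group (2 clusters, 1239 cells) held Sox10 and Foxd3 progenitors and Cartpt and Stmn2 neurons. The remaining 4 clusters, with 17.2% of the cells, had a marker of another class among their 10 leading genes or came almost wholly from 1 library. In clusters 3 and 6 this marker was a single gene, Rgs5 and Epcam. The 4 clusters were left unnamed and entered no main comparison. Levels are given as CPM: the UMIs of a gene were summed over all cells of a group in 1 library and divided by all UMIs of those cells, on the usual CPM scale. The defining markers were checked against the names. The mesothelial list summed to between 2441 and 2766 CPM in the mesothelial-like cells of the 4 libraries and to at most 151 CPM in any other group, and the neural list to between 4305 and 5606 CPM in neural-like cells and at most 135 CPM elsewhere. The FB list did not set FB-like cells apart, since it summed to 1529 to 2316 CPM there, 1793 to 3032 CPM in SMC-like and 1735 to 3760 CPM in mesothelial-like cells, and only neural-like cells were low (63.9 to 103 CPM). FB-like thus means mesenchyme in which FB markers were detected and whose leading genes were not those of another class; it also held smooth muscle markers (893 to 1859 CPM). LI replicate 1 stood apart in depth, with a median of 4219.5 UMIs a cell against 8384 to 8834 in the other libraries, and its SMC-like cells held 1530 CPM of smooth muscle markers against 5065 or more elsewhere. Pairs of libraries shared 8 to 15 cell barcodes, at most 0.221% of the smaller library.

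In the pathway, Rdh10 oxidises retinol to retinal and the Aldh1a enzymes oxidise retinal to retinoic acid, a step that does not run backwards. Retinoic acid enters the nucleus with the help of Crabp2, binds receptors of the Rar family paired with Rxr on direct repeats of a short motif, and is cleared by the Cyp26 enzymes, while Crabp1 is usually seen as a buffer. In the embryo the ligand comes largely from mesoderm, it is needed for the migration of enteric neural progenitors along the gut, and Rarb and Cyp26a1 are themselves switched on by it, so that their transcripts are widely read as signs of response.

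The letters behind that last statement could be read in the reference. Promoter windows from RefSeq (GRCm38.p6, 250 bases before to 50 bases after a start) were at hand for 6 of the 9 genes, all but Rdh10, Crabp2 and Aldh1a3. The Rarb window belongs to a start inside the gene. Each was searched on both strands for 2 copies, in the same direction, of any motif among AGGTCA (the consensus) and the close forms AGTTCA (a known form), GGGTCA (likewise) and GGTTCA (likewise), with 1, 2 or 5 bases between them. The 2 genes with a match were Rarb and Cyp26a1, each with a spacing of 5, which is the spacing that binds Rar with Rxr best. The forms searched include those of known elements such as that of Rarb, and the Cyp26a1 match is built of the known form AGTTCA. Both matches thus follow from the choice of letters and are no finding. Of 39 other retinoic acid genes with a window, 1 held a repeat. Of all 32851 windows in the table, 0.0974% held a repeat with that spacing and 0.588% one with any of the 3 spacings. The 80 bases that run up to each start are printed 5′ to 3′ on the gene's strand, with the motifs in capitals, because they show how close the repeat lies to the start of transcription:
Rarb, chr14:16575477-16575556, minus strand: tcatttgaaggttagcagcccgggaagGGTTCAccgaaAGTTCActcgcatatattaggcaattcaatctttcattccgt
Cyp26a1, chr19:37697728-37697807, plus strand: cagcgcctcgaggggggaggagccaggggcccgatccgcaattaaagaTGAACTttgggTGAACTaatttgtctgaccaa
The Rarb repeat lies 53 to 37 bases before the start and reads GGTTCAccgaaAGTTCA. The Cyp26a1 repeat lies 32 to 16 bases before the start on the opposite strand, where it reads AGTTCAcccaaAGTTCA. A match describes the letters and not a bound site, and the windows of Aldh1a1, Aldh1a2, Cyp26b1 and Crabp1 without a match say nothing about more distant elements.

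**Figure D1:**
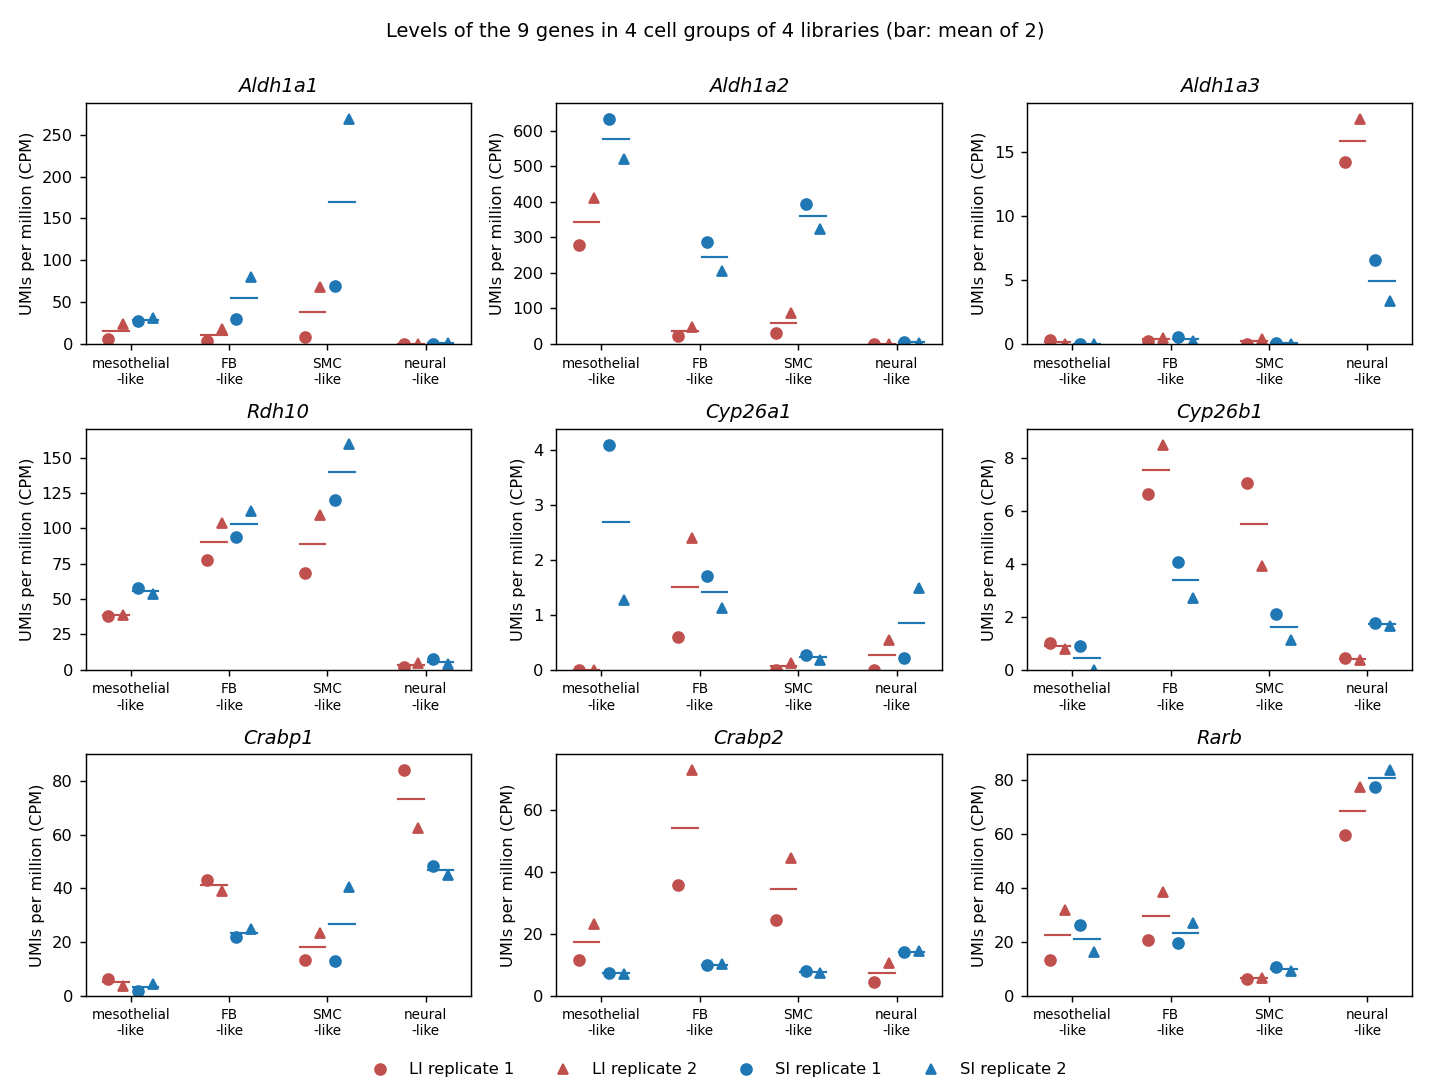
Level of each of the 9 genes, in CPM from 0 on a linear axis that differs between panels, in 4 cell groups; each point is 1 library (red LI, blue SI; circle replicate 1, triangle replicate 2) and each bar the mean of the 2 libraries of a region. Aldh1a2 reached 633 CPM in mesothelial-like cells, Aldh1a3 was above 1 CPM only in neural-like cells, and all 4 Rarb points of the neural-like cells lie above all other Rarb points.

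Rdh10, the enzyme that commits retinol to the pathway (Ensembl ENSMUSG00000025921, GRCm38 chr1:16105774-16133734, plus strand), was a gene of the mesenchyme. In FB-like cells it stood at 77.6 and 104 CPM in the LI libraries and at 93.6 and 112 CPM in the SI libraries. SMC-like cells held 68.4 and 110 CPM in LI and 120 and 159 CPM in SI, and the mesothelial-like cells 38.0 and 39.0 CPM in LI and 57.9 and 53.5 CPM in SI. Neural-like cells held 2.15 to 7.44 CPM. Every library put FB-like and SMC-like cells above mesothelial-like cells and these above neural-like cells. The difference of mesothelial-like from FB-like cells was -1.01 ± 0.16 (log2, SE; adjusted p = 0.000163, edgeR's quasi-likelihood test on 16 sums with the library as a block), and that from SMC-like cells was -1.26 ± 0.16 (adjusted p = 2.23e-05). FB-like and SMC-like cells were neighbours that did not differ beyond their spread (0.24 ± 0.13, adjusted p = 0.301). Neural-like cells were 19.9-fold below FB-like cells (adjusted p = 2.66e-10 in edgeR).

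Aldh1a2, the enzyme that makes most of the embryo's retinoic acid (ENSMUSG00000013584, chr9:71215789-71296243, plus strand), was highest in the mesothelial-like cells of every library, with 277 and 411 CPM in LI and 633 and 520 CPM in SI. In the LI the mesothelial-like cells stood far above the mesenchyme, where FB-like cells held 23.7 and 48.4 CPM and SMC-like cells 31.9 and 88.2 CPM. In the SI the ratio was smaller, since FB-like cells held 286 and 206 CPM and SMC-like cells 394 and 324 CPM. Over both regions the level in mesothelial-like cells was 5.21-fold that in FB-like cells (log2 difference 2.38 ± 0.36, adjusted p = 0.000132, edgeR) and 3.28-fold that in SMC-like cells (adjusted p = 0.00154). Both calls rest on removing the differences between libraries: without the library as a block the adjusted p rose to 0.137 and 0.348 in edgeR. SMC-like and FB-like cells did not differ beyond their spread (0.67 ± 0.34, adjusted p = 0.25).

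Neural-like cells carried next to no Aldh1a2, with 1 and 2 UMIs in all in the LI libraries and 31 and 21 UMIs in the SI libraries, or 6.78 and 3.89 CPM. In each library this was between 0.742% and 2.37% of the level in FB-like cells, below the 2.86% to 6.74% at which the summed list of FB markers appeared in the same neural-like cells. Whether either came from free RNA of the mesenchyme or from the neural-like cells themselves was not tested. The neural-like cells are the group with the least Aldh1a2 and not a measured floor.

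Because the mesothelial-like cells were few, the mesenchyme still gave much of the Aldh1a2 RNA. In the LI libraries 59.5% and 32.6% of all Aldh1a2 UMIs came from mesothelial-like cells, 25.7% and 34.1% from FB-like cells, and 9.3% and 20.9% from SMC-like cells. In the SI libraries mesothelial-like cells gave 8.81% and 5.63%, FB-like cells 38.4% and 31.8%, and SMC-like cells 28.3% and 36.0%. The unnamed clusters gave 5.39% and 12.4% in LI and 24.3% and 26.4% in SI. These shares follow the numbers of cells that passed the sort as well as the level in each cell.

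Aldh1a1, a second enzyme of this step (ENSMUSG00000053279, chr19:20492715-20643465, plus strand), was highest in SMC-like cells, at 8.52 and 67.6 CPM in LI and 69.7 and 269 CPM in SI. FB-like cells held 3.34 and 18.2 CPM in LI and 30.1 and 79.7 CPM in SI, whereas mesothelial-like cells held 6.27 and 24.2 CPM in LI and 27.4 and 30.6 CPM in SI. Replicates of 1 region differed by up to several-fold, and within each library the SMC-like cells were above the other groups. The difference of SMC-like from FB-like cells was 1.64 ± 0.22 (log2, adjusted p = 0.000272, edgeR with the library as a block; adjusted p = 0.41 without that block). Mesothelial-like and FB-like cells did not differ beyond their spread (-0.21 ± 0.29, adjusted p = 0.595). Neural-like cells held 0, 1, 2 and 5 UMIs. Aldh1a7 lies close to Aldh1a1 on the opposite strand and is a near copy of it, so that reads may be split between them and both genes' levels are uncertain. It was likewise highest in SMC-like cells, with 7.54 to 79.7 CPM, against 6.1 to 29.6 CPM in FB-like cells.

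Aldh1a3, the remaining enzyme of the step (ENSMUSG00000015134, chr7:66390890-66427517, minus strand), was found mainly in neural-like cells among the named groups, at 14.2 and 17.6 CPM in LI and 6.56 and 3.33 CPM in SI. The mesothelial-like cells of the 4 libraries together held 1 UMI and the SMC-like cells 0, 3, 1 and 0 UMIs. In FB-like cells the level was 0.223 to 0.567 CPM. The difference of neural-like from FB-like cells was 4.67 ± 0.39 (log2, adjusted p = 1.21e-07, edgeR). Among the named groups Aldh1a3 was above 1 CPM only in neural-like cells. It passed edgeR's filter on low counts through them, so the test adds little to the levels. Within the neural-like group its UMIs lay in the progenitors of cluster 7, with 33 and 98 UMIs in the LI libraries and 30 and 17 in the SI libraries. The neurons of cluster 8 held 1 UMI in all 4 libraries. In SI replicate 2 most of the gene's UMIs lay elsewhere: 43 of 66 (65.2%) came from unnamed clusters, 33 of them from cluster 9, where Aldh1a2 stood at 257 CPM, and 18 (27.3%) from neural-like cells. Among the 4 named groups Aldh1a3 was highest in neural-like cells in every library.

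The 2 breakdown enzymes were scarce. Cyp26b1, which clears retinoic acid in many embryonic tissues (ENSMUSG00000063415, chr6:84571414-84593908, minus strand), stood at 6.62 and 8.5 CPM in the FB-like cells of LI and at 4.06 and 2.73 CPM in those of SI. SMC-like cells held 7.06 and 3.92 CPM in LI and 2.12 and 1.12 CPM in SI. Mesothelial-like cells held 3, 2, 2 and 0 UMIs and neural-like cells 1, 2, 8 and 9 UMIs. In LI the mesothelial-like and neural-like cells held the least, whereas in SI the SMC-like and neural-like means were close (1.62 and 1.71 CPM). Mesothelial-like cells fell below FB-like cells (-2.92 ± 0.63, adjusted p = 0.00228, edgeR), as did neural-like cells (-2.05 ± 0.47, adjusted p = 0.00179). The latter difference rests on 20 neural-like UMIs and was -1.40 without LI replicate 2 (adjusted p = 0.0403, edgeR) and -2.67 without SI replicate 2. The calls against SMC-like cells were close to the threshold, with an adjusted p = 0.0238 for mesothelial-like and 0.0476 for neural-like cells, and both were lost when LI replicate 1, LI replicate 2 or SI replicate 1 was left out (highest adjusted p = 0.0908 and 0.283).

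Cyp26a1, the family member that answers retinoic acid most directly (ENSMUSG00000024987, chr19:37697798-37701536, plus strand), was near the limit of detection in all groups. FB-like cells held 9, 55, 36 and 25 UMIs, or 0.59 to 2.41 CPM, and of these UMIs cluster 0 held 7, 42, 23 and 19. Mesothelial-like cells held no UMI in the LI libraries, which allows up to 0.991 and 1.17 CPM, and 9 and 2 UMIs in the SI libraries, or 4.1 and 1.27 CPM. SMC-like cells held 0 to 3 UMIs and neural-like cells 0 to 8. Between the regions the FB-like level differed by 0.01 ± 0.57 (log2, adjusted p = 0.995, edgeR), and between groups it was too low to be tested.

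Crabp1, which holds retinoic acid in the cytoplasm (ENSMUSG00000032291, chr9:54764748-54773110, plus strand), was highest in neural-like cells, at 84.2 and 62.4 CPM in LI and 48.6 and 45.0 CPM in SI. FB-like cells held 43.3 and 39.0 CPM in LI and 21.8 and 25.0 CPM in SI, SMC-like cells 13 to 40.4 CPM, and mesothelial-like cells 1.82 to 6.27 CPM. The neural-like level was above that of FB-like cells in all 4 libraries (0.97 ± 0.28, adjusted p = 0.00882, edgeR; 0.0524 without SI replicate 1). Mesothelial-like cells were below FB-like cells by far more (-2.94 ± 0.49, adjusted p = 0.000296). Within the groups the clusters differed. The neurons of cluster 8 held 512 and 317 CPM in LI and 197 and 180 CPM in SI, whereas the progenitors of cluster 7 held 2.19 to 6.46 CPM. The FB-like cluster 4, which led with Anxa2, Tac2 and Wnt4, held 168 and 120 CPM in LI, the most of the FB-like clusters, and 33.1 and 6.08 CPM in SI, where its mean of 19.6 CPM was the lowest of them.

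Crabp2, which carries retinoic acid to its receptor (ENSMUSG00000004885, chr3:87948666-87953376, plus strand), was a gene of the LI mesenchyme. FB-like cells held 35.7 and 73.0 CPM in LI against 9.87 and 10.2 CPM in SI, and SMC-like cells 24.3 and 44.6 CPM against 7.94 and 7.26 CPM. In mesothelial-like cells the values were 11.6 and 23.0 CPM in LI and 7.29 and 7.01 CPM in SI. Neural-like cells went the other way, with 4.3 and 10.6 CPM in LI and 14.2 and 14.3 CPM in SI. Over both regions no pair of groups differed past the threshold, and the largest difference, mesothelial-like below FB-like cells, was -1.18 ± 0.49 (adjusted p = 0.0713, edgeR). That fit averages the regions. It cannot show a difference of opposite sign in each, as neural-like cells were below FB-like cells in LI and above them in SI.

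Rarb, the receptor whose own gene answers retinoic acid (ENSMUSG00000017491, chr14:16430839-16819156, minus strand), was highest in neural-like cells. It stood there at 59.3 and 77.3 CPM in LI and 77.2 and 83.7 CPM in SI, and the highest value of any other group was 38.5 CPM. FB-like cells held 20.4 and 38.5 CPM in LI and 19.5 and 27.0 CPM in SI, mesothelial-like cells 13.2 and 31.6 CPM in LI and 26.0 and 15.9 CPM in SI, and SMC-like cells 6.08 and 6.53 CPM in LI and 10.7 and 9.24 CPM in SI. Neural-like cells were 2.97-fold above FB-like cells (log2 difference 1.57 ± 0.18, adjusted p = 3.18e-06, edgeR). Mesothelial-like and FB-like cells did not differ beyond their spread (-0.23 ± 0.22, adjusted p = 0.44). SMC-like cells were lowest, 3.01-fold below FB-like cells (adjusted p = 0.000166) and 2.56-fold below mesothelial-like cells (adjusted p = 0.000657). Exons of Rarb share 1793 bases with exons of Top2b on the other strand, and since the use of strand in the counting is not given in the sources used here, reads of the pair in these bases may not be told apart.

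Read as counts, the comparisons with neural-like cells called 6 or 7 of 8 members, and they also called the largest shares of all genes. Against FB-like cells, 7 of 8 members tested were called in neural-like cells, 3 higher and 4 lower, where 59.9% of all 12522 genes tested were called. Mesothelial-like against neural-like cells called 6 of 8 (63% of all genes) and SMC-like against neural-like cells 7 of 8 (57.8% of all genes). Mesothelial-like against FB-like cells called 4 of 8 (37.9% of all genes), with Aldh1a2 higher and Crabp1, Cyp26b1 and Rdh10 lower. Mesothelial-like against SMC-like cells called 6 of 8 (39.5% of all genes) and SMC-like against FB-like cells 2 of 8, Aldh1a1 higher and Rarb lower (10.8% of all genes). Cyp26a1 was the gene not tested.

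**Figure D2:**
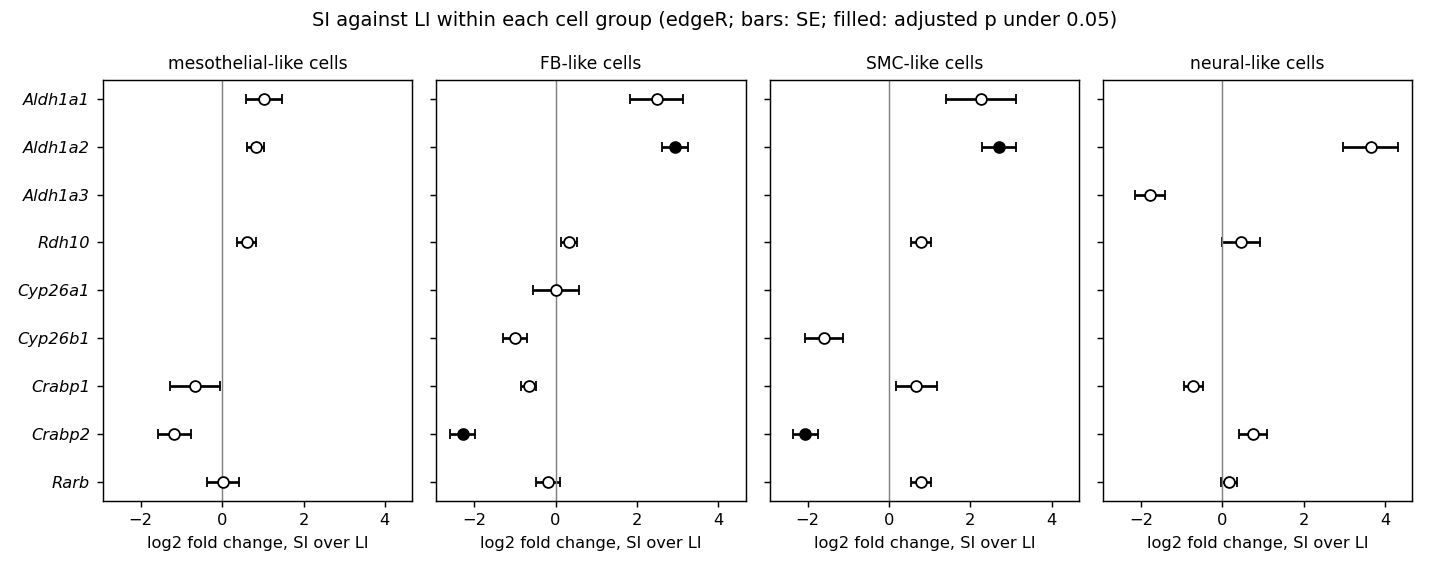
Difference between SI and LI for each gene within each cell group, as a log2 fold change with its SE from edgeR on sums of 2 libraries a region; filled points passed an adjusted p of 0.05 and genes too low to be tested have no point. Aldh1a2 lies right of 0 in mesothelial-like, FB-like and SMC-like cells (its neural-like point rests on 1 and 2 UMIs in LI and 31 and 21 in SI) and Crabp2 left of 0 in all but the neural-like cells, while Rarb lies within 1 log2 unit of 0 throughout.

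Between the regions, 2 of the 8 members tested in FB-like cells were called, where 3.69% of the 13654 genes tested were called: Aldh1a2 was 7.62-fold higher in the SI (log2 difference 2.93 ± 0.32, adjusted p = 0.00163, edgeR) and Crabp2 4.85-fold higher in the LI (-2.28 ± 0.31, adjusted p = 0.00483). The median difference was -0.09 over the 8 members and 0.01 over all genes tested. In SMC-like cells the same 2 of 7 members were called (1.27% of all genes), Aldh1a2 by 2.71 ± 0.41 (adjusted p = 0.0265; 3.63 without LI replicate 2) and Crabp2 by -2.05 ± 0.30 (adjusted p = 0.0232, and 0.052 without SI replicate 2). Both were called without LI replicate 1, the library whose SMC-like cells stood apart. In neither group did the levels of the 2 regions overlap for these genes, which also held for some members that were not called. In mesothelial-like cells none of 6 members was called (1.1% of all genes; 4 of the 6 had an unadjusted p under 0.05, and DESeq2 called 0), and Aldh1a2 stood 0.82 ± 0.22 higher in the SI with an adjusted p = 0.12. In neural-like cells none of 6 was called (0.328% of all genes; 3 had an unadjusted p under 0.05, and DESeq2 called 0).

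Markers of other classes were followed beside these results. The mesothelial list summed to 151 and 86.1 CPM in the FB-like cells of LI and to 64.2 and 45.1 CPM in those of SI, higher in LI as Crabp2 was, and its part in the results was not tested. The smooth muscle list summed to 893 and 1052 CPM in the FB-like cells of LI and to 1226 and 1859 CPM in those of SI, and its part was not tested either. In SMC-like cells the mesothelial list summed to 128 and 42.2 CPM in LI and 28.6 and 14.4 CPM in SI, the neural list to 23.4 and 68.3 CPM against 66.8 and 135 CPM, and the smooth muscle list to 1530 and 5664 CPM against 5065 and 10518 CPM, also untested. With equal numbers of cells of each FB-like cluster drawn from every library, Aldh1a2 and Crabp2 were still called in FB-like cells.

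The following differences were not called in the fit reported here. Without a filter on low counts, edgeR called those of Aldh1a1 and Cyp26b1 in FB-like and SMC-like cells, of Rdh10 in SMC-like cells and of Aldh1a3 in neural-like cells. Aldh1a1 was higher in the SI by 2.48 ± 0.65 in FB-like cells (adjusted p = 0.0859, edgeR) and by 2.26 ± 0.85 in SMC-like cells (adjusted p = 0.35). With 1 library left out the FB-like difference ran from 1.66 (without SI replicate 2) to 4.14 (without LI replicate 2), and it was called each time (highest adjusted p = 2.46e-05, edgeR). The SMC-like difference ran from 0.99 to 4.46 without the same libraries, and it was called without LI replicate 2 (adjusted p = 0.0484, edgeR). In these fits the lone library of a region is assumed to vary like the others. Rdh10 was higher in the SI by 0.34 ± 0.19 in FB-like and by 0.79 ± 0.25 in SMC-like cells (adjusted p = 0.432 and 0.262). Cyp26b1 differed by -1.0 ± 0.29 and -1.60 ± 0.47 in the same groups (adjusted p = 0.119 and 0.21, edgeR). Aldh1a3 in neural-like cells was lower in the SI (-1.78 ± 0.36, adjusted p = 0.0859, edgeR). Crabp1 was lower in the SI in FB-like cells (-0.66 ± 0.19, adjusted p = 0.119) and in neural-like cells (-0.71 ± 0.23, adjusted p = 0.328), with the opposite sign in SMC-like cells (0.68 ± 0.51, adjusted p = 0.663). Rarb showed no difference past the threshold in this fit: -0.19 ± 0.29 in FB-like cells (adjusted p = 0.806), 0.02 ± 0.39 in mesothelial-like cells (adjusted p = 0.991), 0.79 ± 0.25 in SMC-like cells (adjusted p = 0.254) and 0.16 ± 0.20 in neural-like cells (adjusted p = 0.885). A miss of the threshold with 2 libraries a region does not show that its level was the same.

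Whether a regional difference itself differed between groups was tested as an interaction against FB-like cells in 1 fit of all 16 sums. For mesothelial-like cells 1 of 9 members was called (1.96% of all 13172 genes), which was Aldh1a2: its SI excess was smaller than in FB-like cells by 2.14 ± 0.19 on the log2 scale (interaction -2.14, adjusted p = 1.19e-05, edgeR). On the linear scale the mean of mesothelial-like cells was 344 CPM in LI and 577 CPM in SI, and that of FB-like cells 36.0 and 246 CPM, so that the contrast is one of proportions. For neural-like cells 2 of 9 were called (12.6% of all genes), Crabp2 (3.14 ± 0.20, adjusted p = 1.55e-07) and Cyp26b1 (3.13 ± 0.82, adjusted p = 0.0202), both of which stood higher in the SI in neural-like cells and higher in the LI in FB-like cells. The Cyp26b1 value rests on 20 UMIs in neural-like cells and was not called with thinned sums (adjusted p = 0.0909, edgeR). For SMC-like cells none of 9 was called (0.676% of all genes; 3 had an unadjusted p under 0.05 in edgeR, and DESeq2 called 0), and the interactions of Aldh1a2 and Crabp2 were -0.17 ± 0.19 and 0.25 ± 0.16 (adjusted p = 0.956 and 0.811).

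**Figure D3:**
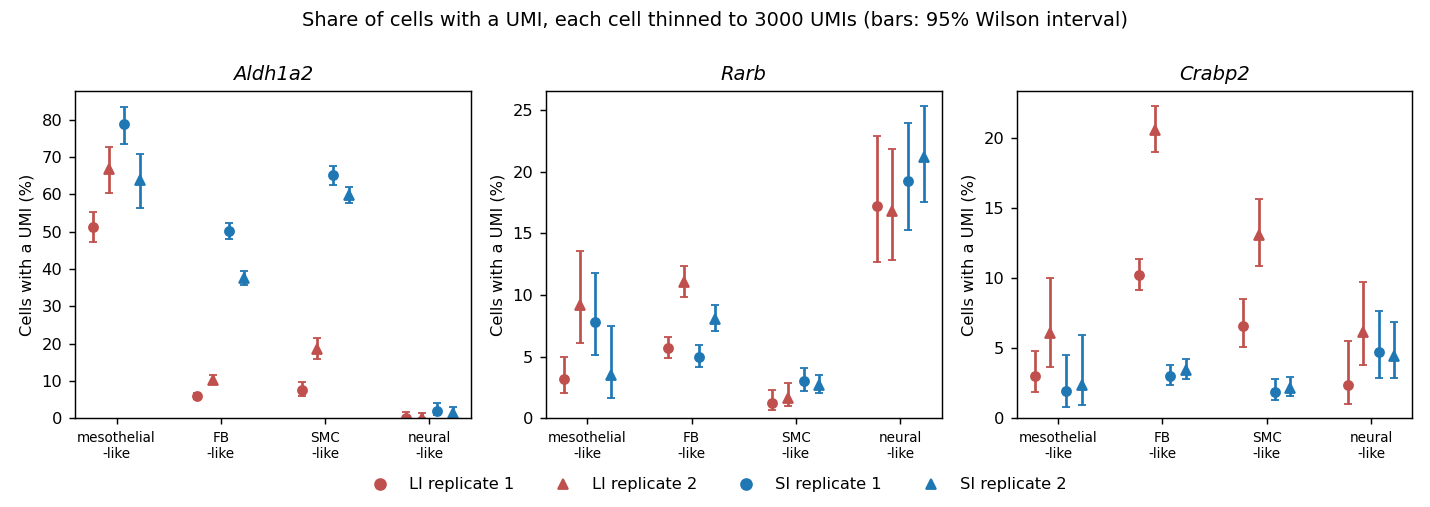
Percent of cells with at least 1 UMI of Aldh1a2, Rarb or Crabp2 after each cell was thinned to 3000 UMIs, by cell group and library (red LI, blue SI; circle replicate 1, triangle replicate 2), with 95% Wilson intervals that cover counting error only. Aldh1a2 was found in 37.5% to 50.2% of FB-like cells of the SI and in 5.88% to 10.3% of those of the LI, and Rarb in 16.9% to 21.2% of neural-like cells.

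The same differences were seen as shares of cells at 1 fixed depth. After thinning to 3000 UMIs a cell, which left out 716 of the 3503 FB-like cells of LI replicate 1 and at most 102 in any other group and library, Aldh1a2 was detected in 5.88% and 10.3% of FB-like cells in LI and in 50.2% and 37.5% in SI. Without thinning the shares were 7.74%, 20.4%, 75.5% and 59.4%. In mesothelial-like cells Aldh1a2 was detected in 51.2% and 66.8% in LI and in 78.9% and 63.9% in SI, and in SMC-like cells in 7.59% and 18.6% against 65.2% and 59.9%. The neural-like cells, the group with the least Aldh1a2, gave 0 of 209 and 0 of 261 thinned cells in LI (upper 95% Wilson bounds 1.8% and 1.45%) and 1.89% and 1.41% in SI. Their median depth before thinning was 11065 to 19853 UMIs, against 3995 to 9089.5 UMIs in FB-like cells. The FB-like cells of the LI held a share above that of neural-like cells, which were taken for their low level and are no measured background. Both a smaller share of cells and a lower CPM set the FB-like cells of the LI below those of the SI.

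Rarb was detected in 17.2% and 16.9% of neural-like cells in LI and in 19.2% and 21.2% in SI at that depth, against 5.0% to 11.1% of FB-like cells and 1.26% to 3.02% of SMC-like cells. Crabp2 was detected in 10.2% and 20.6% of FB-like cells in LI and in 3.03% and 3.42% in SI. These SI shares are near those of Crabp2 in neural-like cells (2.39% to 6.13%), where no cell type without the gene was at hand to set a background.

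Cells with Aldh1a2 and cells with the response gene were compared within FB-like cells at the same depth. Rarb was detected in 2.44% of cells with Aldh1a2 and 5.87% of cells without it in LI replicate 1, in 9.39% and 11.3% in LI replicate 2, in 5.69% and 4.3% in SI replicate 1 and in 7.96% and 8.16% in SI replicate 2. No common direction was seen. Crabp2 was less often detected in cells with Aldh1a2 than without it in all 4 libraries, with 6.71% against 10.4%, 16.3% against 21.1%, 2.49% against 3.58%, and 3.18% against 3.57%, and the 95% Wilson intervals of the 2 shares overlapped in each library. Cyp26b1 was detected in 0 of 164 and 1 of 245 cells with Aldh1a2 in the LI, against 1.98% and 2.53% of those without it, and went the other way in the SI, with 1.6% against 0.806% and 0.743% against 0.319%. Cells of 1 library are not replicates, so these shares are a description. The share of cells with Aldh1a1 was higher among cells with Aldh1a2 in all 4 libraries, with 1.83% against 0.839%, 9.39% against 2.72%, 8.72% against 6.98%, and 22.4% against 11.6%, and the 95% Wilson intervals overlapped in replicate 1 of each region.

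**Figure D4:**
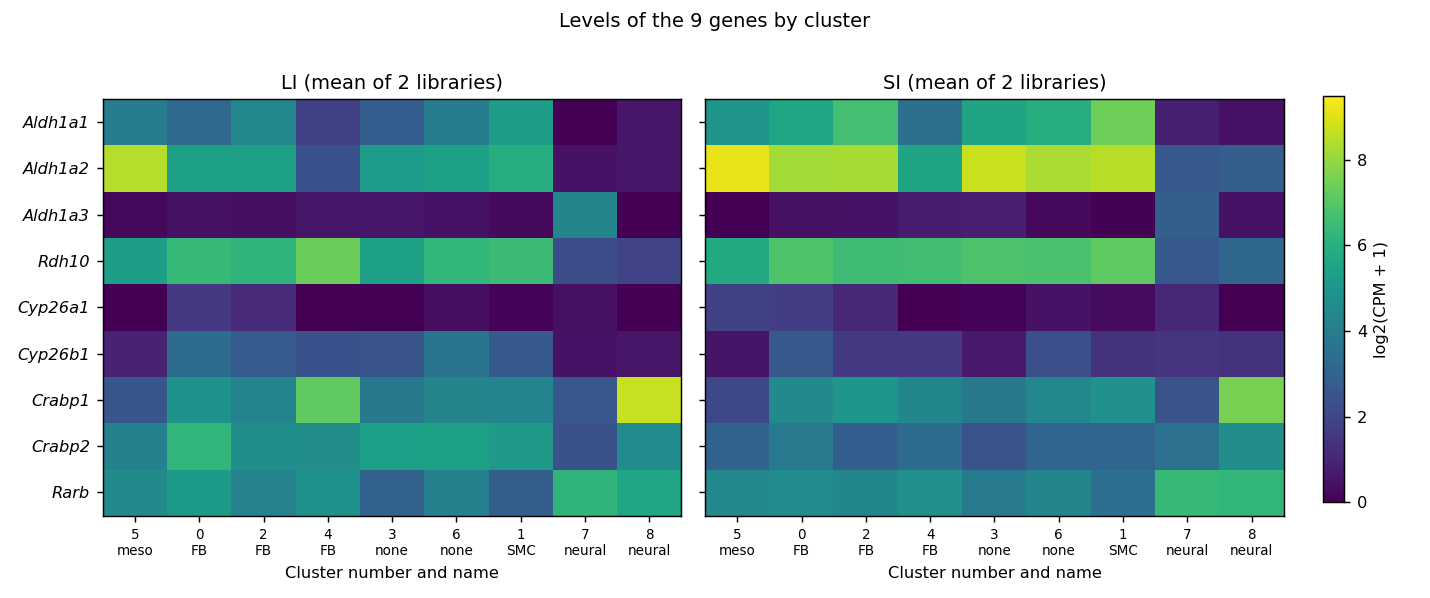
Level of the 9 genes in 9 clusters as log2(CPM + 1), averaged over the 2 libraries of LI (left) or SI (right); columns are clusters by number and name (none for clusters left unnamed), and clusters 9 and 10, which came mostly from 1 library, are not drawn. Cluster 4 is the FB-like column with low Aldh1a2 in both regions, and cluster 8 the column with the highest Crabp1.

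Within the FB-like group the clusters were not alike. Cluster 0, which led with Pitx1, Igfbp5, Cdh13 and Scx, held Aldh1a2 at 27.9 and 54.7 CPM in LI and 324 and 260 CPM in SI, and cluster 2, which led with histone genes, was close to it. Cluster 4 held 2.79 and 5.84 CPM in LI and 60.7 and 29.9 CPM in SI, the lowest of the FB-like clusters in each library. The same cluster 4 held the most Rdh10 of the FB-like clusters in LI, with 120 and 209 CPM, so that the first and the last enzyme of synthesis were not parallel there. Its Rarb level was 19.1 and 37.0 CPM in LI and 21.4 and 33.0 CPM in SI, close to that of the group as a whole. No Cyp26a1 UMI was found in cluster 4 in any library. Crabp2 was highest in cluster 0, with 50.5 and 99.9 CPM in LI and 13.5 and 13.8 CPM in SI. Cyp26b1 reached 8.11 and 15.9 CPM in the LI cells of the unnamed cluster 6. The unnamed cluster 3, in which all 12 FB markers were detected beside the pericyte marker Rgs5, held Aldh1a2 at 21.5 and 49.8 CPM in LI and 509 and 355 CPM in SI.

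Within the neural-like group Rarb was found in both clusters, and in each LI library the level was higher in cluster 7, a difference that was not tested. Progenitors of cluster 7 held 64.5 and 80.8 CPM in LI and 77.2 and 86.3 CPM in SI, and neurons of cluster 8 held 30.6 and 62.4 CPM in LI and 77.2 and 75.3 CPM in SI, where the first value rests on 11 UMIs.

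A further 50 genes of vitamin A uptake, oxidation, receptors, co-regulation and response were listed with the members, and all 50 were in the files. Between regions 6 of the 40 tested in FB-like cells were called, 3 in each direction (3.69% of all genes), 2 of 36 in SMC-like cells (1.27%), 1 of 34 in mesothelial-like cells (1.1%) and none of 27 in neural-like cells (0.328%; 7 with an unadjusted p under 0.05 in edgeR). Their median difference was 0.10 in FB-like cells.

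Of the 7 genes of uptake and storage, Stra6l, a retinol transporter, was the one with the clearest regional difference, at 4.26 and 2.54 CPM in the FB-like cells of LI against 3 and 1 UMIs in those of SI, and at 8.76 and 7.58 CPM in the SMC-like cells of LI against 4 and 5 UMIs in SI (adjusted p = 0.0028 and 0.00341, edgeR). Lrat, which stores retinol as an ester, rose in the FB-like cells of SI but from 0 and 2 UMIs to 15 and 22 (adjusted p = 0.0283). Rbp4, the retinol carrier of the blood, was highest in mesothelial-like cells, at 5.1 to 14.6 CPM against 0.715 to 1.45 CPM in FB-like cells. Stra6, the receptor for that carrier, was lower in neural-like than in FB-like cells (-0.79 ± 0.20, adjusted p = 0.00338). Across neural-like and FB-like cells, 1 of 4 tested genes of this list was higher and 3 lower (59.9% of all genes called).

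Of the 15 genes of retinol and retinal oxidation or reduction, Dhrs3, which turns retinal back to retinol and is itself known as a target of retinoic acid, rose from 7.15 and 11.1 CPM in LI to 17.0 and 21.0 CPM in SI in FB-like cells (1.21 ± 0.24, adjusted p = 0.0305, edgeR) and from 3.41 and 5.1 CPM to 14.2 and 15.7 CPM in SMC-like cells (1.91 ± 0.27, adjusted p = 0.0211). In neural-like cells its values were 3.44 and 16.3 CPM in LI and 51.8 and 110 CPM in SI, and the interaction against FB-like cells was called (1.62 ± 0.36, adjusted p = 0.00719). Aldh1a7 rose in the FB-like cells of SI (2.07 ± 0.23, adjusted p = 0.00163), with the doubt about its near copy named above. Dhrs4 and Rdh14 were higher in mesothelial-like than in neural-like cells by 0.90 ± 0.13 and 0.60 ± 0.13 (log2), and Rdh13 was lower in mesothelial-like than in SMC-like cells (-0.83 ± 0.14). In SI against LI, 2 of 10 tested genes rose and none fell in FB-like cells (3.69% of all genes called), and 1 of 10 rose in SMC-like cells (1.27%).

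Of the 8 genes of receptors and binding, Rara, the receptor found in most tissues, was higher in neural-like than in SMC-like cells (SMC-like minus neural-like -1.02 ± 0.17, adjusted p = 0.000131, edgeR), while Rarg was lower (1.35 ± 0.29, adjusted p = 0.000948). Rara in neural-like cells stood at 31.8 and 39.5 CPM in LI and 71.7 and 83.5 CPM in SI. Fabp5, which can carry retinoic acid to another receptor, was also highest in neural-like cells, with 638 to 1168 CPM against 90.1 to 169 CPM in mesothelial-like cells (adjusted p = 3.03e-10). Rxrb and Ppard were lower in neural-like than in FB-like cells (-0.43 ± 0.09 and -0.73 ± 0.16). Between regions the one gene called in this list was Rxrg, in FB-like cells (3.69% of all genes called there). It stood at 4.59 and 8.5 CPM in LI against 8 and 7 UMIs in SI (adjusted p = 0.00131, edgeR). Rxrg and Hoxb1 are named because few genes were called, after their values were seen. The breakdown enzyme Cyp26c1, the single gene of its list, was too low to be tested in any comparison.

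Of the 6 co-regulators of the receptors, none was called between regions in any group, where 0.328% to 3.69% of all genes were called. In the interaction of neural-like against FB-like cells 1 was called (12.6% of all genes), which was Nrip1 (0.70 ± 0.11, adjusted p = 0.000661, edgeR). Between groups, the co-activators Ncoa1 and Ncoa2 were higher in mesothelial-like than in neural-like cells (1.09 ± 0.17 and 0.46 ± 0.10, adjusted p = 5.79e-05 and 0.00119, edgeR). Nrip1, a co-repressor induced by retinoic acid in other tissues, was higher in neural-like than in SMC-like cells (SMC-like minus neural-like -0.95 ± 0.14).

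Of the 17 genes known to answer retinoic acid in other tissues, between regions 1 of 16 rose and 1 fell in the FB-like cells of SI (3.69% of all genes called). The gene that rose was Dhrs3, and the median difference was 0.10. Hoxb1 was the one gene called in mesothelial-like cells (1.1% of all genes), from 2 and 2 UMIs in LI to 26 and 9 UMIs in SI (adjusted p = 0.0229, edgeR). None of 10 was called in neural-like cells (0.328% of all genes), where the median was 0.67. In the interaction of neural-like against FB-like cells 5 of 16 were called, where 12.6% of all genes were, and all 5 were positive (median 0.40). Between neural-like and FB-like cells 6 of 15 were higher and 9 lower, where 59.9% of all genes were called. Meis2, a homeobox gene, was 29.3-fold lower in neural-like cells (adjusted p = 1.69e-10), and Hic1 and Nr2f2, genes of mesenchymal cells, were lower as well (-5.90 ± 0.28 and -1.89 ± 0.13). Tgm2, a transglutaminase, was highest in mesothelial-like cells, at 26.1 to 63.1 CPM against 2.28 to 3.12 CPM in FB-like cells (3.94 ± 0.22, adjusted p = 9.11e-09).

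For the 7 members with enough UMIs, the genes with the most similar levels over the 16 sums of library and group were sought, as a description in which the sums share libraries and depth. Aldh1a2 was followed most closely by Rspo1, Plp2 and Ghr (Pearson's r = 0.974, 0.968 and 0.963 on log2(CPM + 1)). Rdh10 was followed by Tcf21, Cped1 and Gem (0.981, 0.980 and 0.978), and Aldh1a1 by Asph, Cldnd1 and Chrm2 (0.949, 0.945 and 0.940). Crabp1 was followed by Zeb2, Etv1 and Cnrip1 (0.944, 0.929 and 0.923), and Rarb by Mycn, Crem and Nkap (0.932, 0.905 and 0.891). Crabp2 was followed by Camsap1, Cnot4 and Ercc5 (0.925, 0.915 and 0.889) and Cyp26b1 by Ccnl2, Tubgcp2 and Zfp90 (0.912, 0.908 and 0.884). Aldh1a3 and Cyp26a1 averaged under 20 UMIs a sum and were left out.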

How the data were processed

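Droplet single-cell RNA libraries of sorted stroma from E12.5 mouse intestine (2 SI, 2 LI) were deposited as UMI count matrices that the authors made with Cell Ranger 3.1.0 on mm10, per the file headers. The study's own filtered and integrated cells were not used here. Barcodes with at least 1000 detected genes and at most 10% mitochondrial counts were kept, and since Scrublet (scanpy 1.11.5) marked almost no doublets by itself, the highest scores were removed at 0.8% per 1000 cells. Total counts per library ran from 31630548 to 62886525 UMIs, and intervals and floors (3 UMIs) cover counting error only. Cells were clustered with Seurat 5.3.0 (1951 variable genes, 30 components, resolution 0.3), and clusters were named from marker lists. The limit of 90% of a cluster from 1 library was set after the clusters were seen. Counts were summed per library and group and tested with edgeR 4.0.16 (quasi-likelihood, Benjamini-Hochberg adjustment over all genes passing its filter on low counts, threshold 0.05): SI against LI within a group, and groups and interactions over 16 sums with the library as a block. The fits were also run on simulated data, with an outcome that is not reported here. Alternatives were DESeq2 1.42.0, its size factors, no filter, libraries left out, thinned sums, doublets kept, another resolution, other definitions of the mesenchyme and a replicate block. The members and lists were chosen with earlier results of these data known. All members were named, with up to 5 genes a list by smallest adjusted p and the 3 genes most like a member. Some genes of the lists are not reported here.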

Additional observations from a re-analysis of the deposited data

Results flagged for a closer look

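The regional difference of Aldh1a2 in mesothelial-like cells differed from that in FB-like cells (interaction -2.14 ± 0.19, log2; adjusted p = 1.19e-05, edgeR), with SI above LI in both groups. The value ranged from -2.40 to -1.91 when 1 library was left out.

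The regional difference of Crabp2 in neural-like cells differed from that in FB-like cells (interaction 3.14 ± 0.20, adjusted p = 1.55e-07, edgeR). It ranged from 3.1 to 3.33 when 1 library was left out. That of Cyp26b1 in the same cells was 3.13 ± 0.82 (adjusted p = 0.0202, edgeR), on 1 and 2 UMIs in the neural-like cells of the LI libraries and 8 and 9 in those of the SI. It was not called without LI replicate 2, SI replicate 1 or SI replicate 2 (highest adjusted p = 0.179).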

How the results depend on the processing

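Of the 39 calls of members, none changed sign under any alternative that was run, and the number lost was 0 to 4 in each, save 6 of 32 without the library as a block. Depth limits Cyp26a1, Cyp26b1 and Aldh1a3 most, with few UMIs in most groups. The same replicate number does not mark a shared embryo or experiment in the sources used here, and with 2 pairs no pairing was taken, although deviations correlated by 0.264 to 0.441. With the number as a replicate block, Rarb was called in SMC-like cells (adjusted p = 0.0343, edgeR) but in no other group; 5 members were called between regions in FB-like, 3 in mesothelial-like, 7 in SMC-like and 3 in neural-like cells, where 1228 of 13654, 765 of 10654, 1504 of 12250 and 481 of 11273 genes were called in all. Those not called were Rdh10, Rarb and Cyp26a1 in FB-like cells, and in SMC-like cells none. Without a filter on low counts these counts were 4, 2, 5 and 2 (1375 of 19103, 408 of 16527, 890 of 17608 and 361 of 16713 genes), and the interactions called 3 members for mesothelial-like and 3 for SMC-like cells (771 and 391 of 20078 genes). With 1 library left out the ranges were 3 to 4 in FB-like, 0 to 2 in mesothelial-like, 1 to 4 in SMC-like and 1 to 4 in neural-like cells, and 1 to 2, 0 to 1 and 1 to 2 for the mesothelial-like, SMC-like and neural-like interactions. With doublets kept, 1 member was called between regions in neural-like cells and 2 in the mesothelial-like interaction, and 2 in the latter with cluster 3 added to FB-like cells, an alternative chosen after seeing the data. Thinned sums left 1 in the neural-like interaction. Without the library as a block 1 member was called between SMC-like and FB-like and 3 between mesothelial-like and SMC-like cells. The calls over all genes in each of these fits lie within the ranges that follow. Over all genes, the calls between regions ranged from 471 to 1890 in FB-like cells (3.69% of 13654 as reported), 119 to 1504 in SMC-like (155 as reported), 88 to 1287 in mesothelial-like (117) and 25 to 1490 in neural-like cells (37). They ranged from 380 to 1731 between SMC-like and FB-like cells (1350), 2709 to 5106 between mesothelial-like and FB-like (4741), 3024 to 5211 between mesothelial-like and SMC-like (4949), 4668 to 7716 between SMC-like and neural-like (7243) and 4738 to 8084 between neural-like and FB-like cells (7497). The interactions ranged from 54 to 771 (258), 13 to 391 (89) and 544 to 2003 (1662) for mesothelial-like, SMC-like and neural-like cells. With DESeq2's size factors the SMC-like interaction split into 36 higher and 70 lower calls (41 and 48 as reported), and with thinned sums into 4 and 14. Thinned sums also gave 66 and 109 for the mesothelial-like interaction (130 and 128) and 17 and 16 between regions in neural-like cells (14 and 23). The cause of these shifts was not tested.

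Signs turned only in log2 differences that were not called. Between regions these were Crabp1 in FB-like cells with doublets kept (0.0303) and in SMC-like cells (-0.37 to 1.28 with 1 library left out), Rarb in FB-like cells (-0.57 to 0.30 with 1 library left out), and Rarb in mesothelial-like cells with DESeq2 (-0.00905), without a filter (-0.00163), with thinned sums (-0.18), with doublets kept (-0.22), and with 1 library left out (-0.47 to 0.72). Aldh1a1 in mesothelial-like against FB-like cells turned with DESeq2 (0.0270) and with 1 library left out (-0.48 to 0.27). In the SMC-like interaction Aldh1a2 turned with 1 library left out (-0.33 to 0.14) and Crabp2 with thinned sums (-0.0606) and with all other mesenchyme in place of FB-like cells (-0.0333).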

Other observations

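The unnamed cluster 9 held 151 cells, 111 of them from SI replicate 2, and led with Pf4, Afp, Mt1, Foxd1 and Hbb-bt. In that library it held Aldh1a2 at 257 CPM, Crabp1 at 209 CPM, Crabp2 at 172 CPM and Aldh1a3 at 27.0 CPM (33 UMIs), and a list of nephric, gonadal and body wall markers summed to 609 CPM, against 8.13 CPM in the 32 cells from SI replicate 1.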
